A study of Mus musculus with 9 samples.

Results

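The heat shock factors and cytosolic chaperones described here are 10 genes of 22851 in the deposited table. The genes were taken by name from the heat shock response, with earlier results of these data known. They are the transcription factors Hsf1 and Hsf4, the HSP70 genes Hspa1a, Hspa1b and Hspa8, the HSP110 gene Hsph1, the HSP90 gene Hsp90aa1, the J-domain gene Dnajb1, and the small heat shock protein genes Hspb1 and Cryab. RNA-seq was done on myocardium of male C57BL/6J mice aged 6 to 8 weeks at the start, in 3 groups of 3 libraries. The control check group (CK) received citrate buffer. The diabetic cardiomyopathy group (DCM) received a single injection of streptozotocin (STZ, 180 mg/kg), a toxin of the insulin-producing beta cells, and was kept for 12 weeks. The spermine group (SPM) received the same STZ plus the polyamine spermine (1 mg/kg), daily over the 2 weeks before STZ and every other day over the following 12 weeks. No group with spermine alone was analysed here, so SPM compared to DCM is a comparison within STZ-treated mice, and SPM compared to CK joins both treatments.

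Cells answer unfolded protein with the heat shock response. Hsf1, kept inactive by chaperones in unstressed cells, forms trimers that bind repeated GAA units, called heat shock elements, upstream of chaperone genes. HSP70 proteins, driven by J-domain partners and recharged by HSP110, refold client proteins, HSP90 completes the folding of kinases and steroid receptors, and small heat shock proteins hold unfolded protein soluble. Heart muscle carries much of the small heat shock protein αB-crystallin, the product of Cryab, which protects desmin and other sarcomere-linked filaments. Hsf4 is best known from the eye lens.

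Library totals lay between 29901300 and 39718680 counts. Values per library are CPM, counts scaled to a common library size with TMM factors over the 9 libraries, and a gene passed the test where its Benjamini-Hochberg adjusted p over all tested genes, from edgeR's quasi-likelihood test, was below 0.05. A differentially expressed gene (DEG) also had a fold change of at least 1.5. The extraction protocol in the labels speaks of retinas, whereas the tissue label is heart. All 8 cardiomyocyte markers in the table were abundant (at least 48897 CPM summed in each library), while the retina marker Crx had 1 count over all libraries. The study describes both 3 mice per group and 18 hearts mixed in lots of 6, so p-values here measure only the spread between libraries, which may be that between pools. SPM replicate 2 stood apart: for 66.1% of 14909 genes it took the middle value of its group, against 15.7% to 38.7% for the other 8 libraries. Of 2656 genes without a count in SPM replicates 1 and 3, only 1.13% had one in SPM replicate 2, against 15.6% to 35.0% for the other libraries. Whether it is a sample of its own was not tested. If it is not, SPM has 2 libraries and its p-values are too small. Values of the members, and counts for the other chaperones, are therefore also given without it.

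Sequences upstream of Hspa1a and Hspa1b are shown because these 2 stress-inducible HSP70 genes are near copies whose reads are hard to tell apart, and stretches near the starts of Hsph1 and Chordc1 because both genes fell in DCM and carry the 3-unit heat shock element. A 300-base promoter window, from RefSeq on GRCm38.p6, was given for 5 of the 10 genes (Hspa1a, Hspa1b, Hsph1, Dnajb1 and Hspb1). Letters searched on both strands were GAANNTTC and TTCNNGAA for 2 units. The 3-unit element is either of these continued by any 2 bases and a further unit in the orientation of the first. Each 2-unit motif is its own reverse complement, and every 3-unit match contains 2-unit matches. Capitals mark the match, or for Chordc1 the span of 3 overlapping 3-unit matches. All runs read 5′ to 3′ on the gene's strand, the first pair ending at the base before the annotated start.
Hspa1a, chr17:34972157-34972406, minus strand: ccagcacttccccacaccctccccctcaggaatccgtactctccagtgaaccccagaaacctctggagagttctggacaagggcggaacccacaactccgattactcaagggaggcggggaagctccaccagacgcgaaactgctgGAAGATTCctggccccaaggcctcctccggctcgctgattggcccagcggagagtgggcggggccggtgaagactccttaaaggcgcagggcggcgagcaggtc
Hspa1b, chr17:34959239-34959488, minus strand: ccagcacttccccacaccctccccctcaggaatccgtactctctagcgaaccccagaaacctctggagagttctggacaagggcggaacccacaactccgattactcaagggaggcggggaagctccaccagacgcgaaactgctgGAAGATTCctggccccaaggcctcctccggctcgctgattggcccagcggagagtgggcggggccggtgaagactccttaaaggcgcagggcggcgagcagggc
Hsph1, chr5:149636287-149636304, minus strand: cagaTTCTGGAAAGTTCt
Chordc1, chr9:18292260-18292288, plus strand: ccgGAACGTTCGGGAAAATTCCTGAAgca
Dnajb6, chr5:29735848-29735868, plus strand: ccgaGAATCTTCCGGAAcgct
Hspb1, chr5:135887798-135887813, plus strand: aagaGAAGTTTCcaga
Hspb1, chr5:135887818-135887833, plus strand: ggcaGAACCTTCctgg
The 250 upstream bases of Hspa1a and Hspa1b differed at 3 positions (98.8% identical), and both hold the same 2-unit match. A 2-unit match stood in 4 of the 5 windows' genes, all but Dnajb1, and in 15.1% of all 32851 windows. A 3-unit match stood in 0.603% of all windows. Among 59 genes of the 10 and the other chaperone lists with a window, Hsph1, Chordc1 and Dnajb6 held one. Unlike Hsph1 and Chordc1, Dnajb6 did not pass in DCM compared to CK (log2 fold change -0.01, edgeR adjusted p = 0.973), and its libraries overlapped. The match of Hsph1 lies downstream of its annotated start, and the marked stretch of Chordc1 spans the start, mostly downstream of it. Fkbp4 and Dnaja1 also fell in DCM compared to CK and hold 2-unit matches only. The fall of Chordc1 did not pass without CK replicate 2, CK replicate 3 or any single DCM library. Stretches of Hsph1 and Chordc1 were picked by their values in these data, and a link between match and fall was not tested. A match describes the letters only and shows no binding.

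Levels per length differed widely among the 10 genes. In FPKM (fragments scaled to gene length and library total), the mean over 9 libraries was 999.8 for Cryab, 463.7 for Hspa8 and 291.6 for Hspb1. These constitutive or muscle-rich chaperones stood far above Hsp90aa1 at 18.3 FPKM, Hsf1 at 11.8, Dnajb1 at 8.86, Hsph1 at 5.98 and Hsf4 at 4.06. The inducible Hspa1b was at 2.34 FPKM and Hspa1a at 0.0458. Hsp90ab1, the constitutive HSP90 gene, had a mean of 641.2 FPKM, the highest of its list. Among the other factors Hsf2 was at 2.55 FPKM, while Hsf3 and Hsf5 were at 0.0205 and 0.00899. Neighbouring genes in this order overlapped in places, as the plot of levels per length shows for Dnajb1 and Hsph1.

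**Figure D1:**
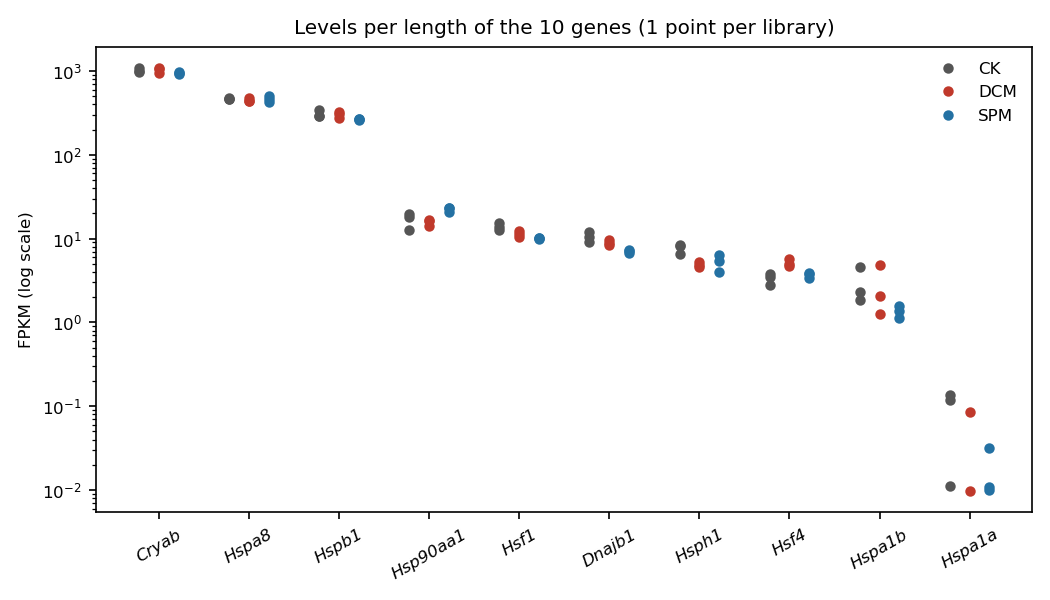
FPKM of the 10 genes on a log axis, 1 point per library, ordered by mean, with CK in grey, DCM in red and SPM in blue. Cryab, Hspa8 and Hspb1 lie above the other genes in all libraries and Hspa1a below them, and the library at 0 for Hspa1a (DCM replicate 2) is not drawn.

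In DCM compared to CK, Hsf4 was upregulated 1.62-fold and Hsph1 was downregulated to 0.680 times its CK level, and no other member passed the test. Thus 2 of the 9 tested genes passed, beside 10.4% of all 14402 tested genes, and 1 was a DEG, beside 4.34% of all. Hspa1a had too few counts to be tested in any comparison. The median log2 fold change was -0.00 for the 9 genes and -0.00 for all genes. The libraries of the 2 groups did not overlap for 2 of the 9, beside 29.3% of all genes.

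Hsf4 (chr8:105269801-105275845 in GRCm38, plus strand, 11 to 13 exons per transcript) encodes a DNA-binding relative of Hsf1. Its CPM was 5.70, 6.31 and 4.77 in CK replicates 1 to 3, 8.75, 10.2 and 8.36 in DCM, and 6.87, 6.81 and 6.02 in SPM. All DCM libraries lay above all others, and SPM overlapped CK. Its log2 fold change was 0.70 ± 0.16 (SE, n = 3 and 3 libraries) in DCM compared to CK, with an edgeR adjusted p of 0.0135. It was downregulated to 0.726 times the DCM level in SPM compared to DCM (log2 fold change -0.46 ± 0.13, edgeR adjusted p = 0.0361), and in SPM compared to CK the value was 0.23 ± 0.15 (edgeR adjusted p = 0.273). These comparisons share the DCM and CK libraries. From the same libraries, the study lists Hsf4 among transcription factors changed in DCM and reversed in the spermine group. Without DCM replicate 2, the highest, the rise over CK was 0.61 and no longer passed. The fall in SPM did not pass without DCM replicate 1, DCM replicate 2, SPM replicate 2 or SPM replicate 3, with values of -0.37 to -0.50, nor with a GC offset, at -0.20.

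Hsf1 (chr15:76477422-76501913, plus strand), the main factor of the heat shock response, had CPM of 46.3, 37.4 and 42.0 in CK, 38.6, 37.0 and 33.6 in DCM, and 31.9, 32.5 and 32.3 in SPM. The SPM libraries lay below all others, and CK and DCM overlapped. It was downregulated in SPM compared to CK (log2 fold change -0.38 ± 0.08, edgeR adjusted p = 0.0110), at 0.770 times the CK level. The differences of DCM from CK (-0.20 ± 0.09) and of SPM from DCM (-0.17 ± 0.07) did not pass. Without SPM replicate 2 the value for SPM compared to CK was -0.38 and did not pass.

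**Figure D2:**
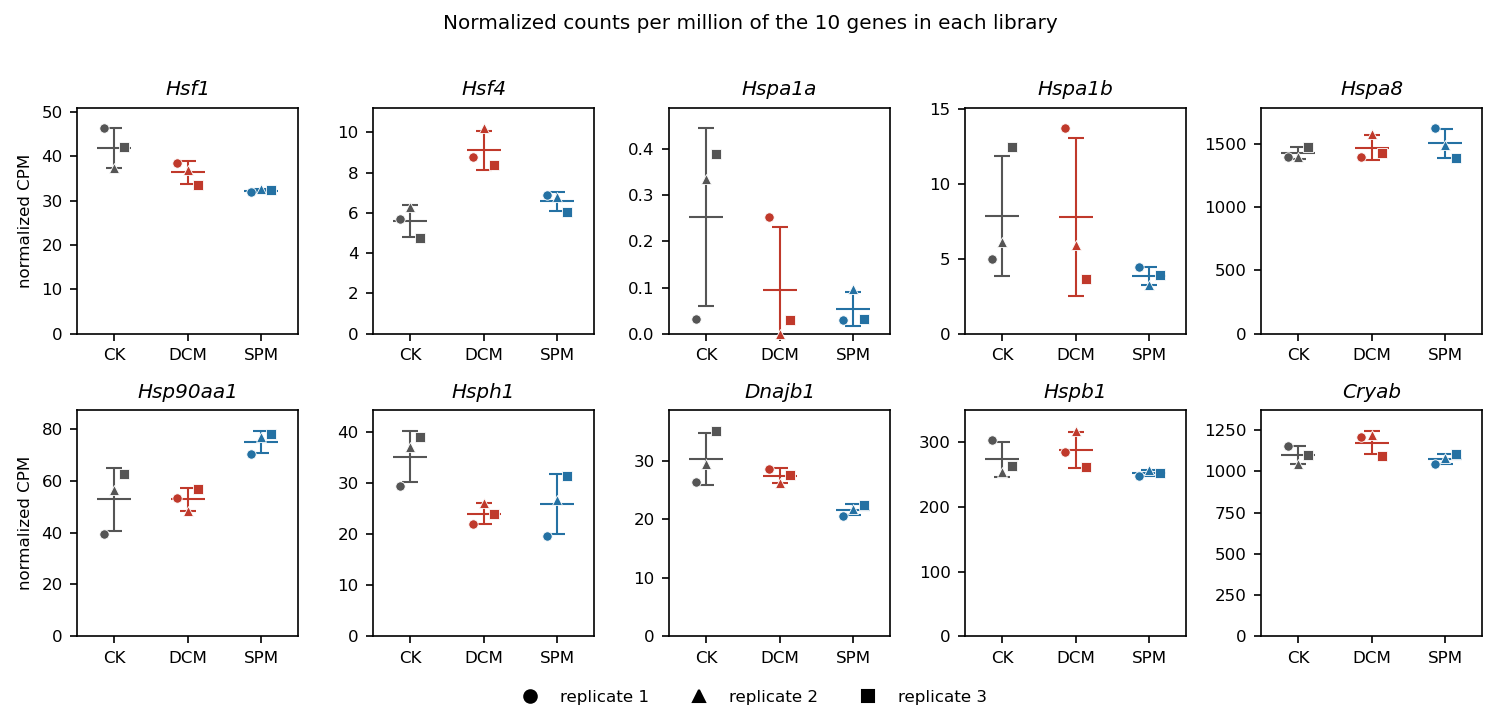
Normalized CPM of the 10 genes in the CK, DCM and SPM libraries, with circles, triangles and squares for replicates 1, 2 and 3, and the mean with SD bars. Hsf4 is highest in the 3 DCM libraries, Hsp90aa1 in the 3 SPM libraries, and Hsph1 is lower in each DCM than in each CK library, whereas single CK and DCM libraries stand out for Hspa1b; each panel has its own axis from 0.

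Hsph1 (chr5:149614287-149636376, minus strand) encodes HSP110, a nucleotide exchange factor of HSP70. Its CPM was 29.4, 37.0 and 39.0 in CK, 21.97, 26.1 and 23.8 in DCM, and 19.7, 26.6 and 31.3 in SPM. Each DCM library lay below each CK library, while SPM spread across both. The log2 fold change in DCM compared to CK was -0.56 ± 0.11 (edgeR adjusted p = 0.00751), short of the 1.5-fold limit. The SPM values were 0.12 ± 0.14 compared to DCM (edgeR adjusted p = 0.594) and -0.44 ± 0.16 compared to CK (edgeR adjusted p = 0.0748). The fall in DCM passed under each alternative setting and without each library in turn.

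Hspa8 (chr9:40800984-40810087, plus strand), the constitutive HSP70, was even across libraries. It had 1394 to 1478 CPM in CK, 1393 to 1580 in DCM and, in SPM, 1392 to 1624, so that the groups overlapped throughout. Its log2 fold changes were 0.04 ± 0.08 in DCM compared to CK, 0.04 ± 0.09 in SPM compared to DCM and 0.08 ± 0.07 in SPM compared to CK, none of which passed. Its annotated span also holds Snord14c, Snord14d and Snord14e on the same strand.

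Hspa1b (chr17:34956436-34959238, minus strand, a single exon), the stress-inducible HSP70, varied most of the 9 tested members within CK and DCM. Its CPM was 5.003, 6.14 and 12.5 in CK, 13.7, 5.97 and 3.67 in DCM, and 4.46, 3.24 and 3.90 in SPM. One CK and one DCM library stood above 12 CPM, and the coefficient of variation was 51.1% in CK and 67.8% in DCM. It was downregulated in SPM compared to CK (log2 fold change -1.02 ± 0.32, edgeR adjusted p = 0.0454), the only DEG among the members in that comparison. That call was lost without CK replicate 2, CK replicate 3 or any single SPM library, and without CK replicate 3 the value was -0.53. The call was also lost in the fit of all 9 libraries and with a GC offset. Compared to DCM the SPM value was -1.01 ± 0.39 (edgeR adjusted p = 0.0955), and in DCM compared to CK it was -0.00 ± 0.41.

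Hspa1a (chr17:34969190-34972156, minus strand, a single exon), its neighbour with a start 12918 bases away, had 1, 12 and 12 counts in CK, 10, 0 and 1 in DCM, and 1, 3 and 1 in SPM. The 0 in DCM replicate 2 allows up to 0.102 CPM (3 counts, counting error only). Over all libraries the pair had 41 counts on Hspa1a and 1974 on Hspa1b, so Hspa1a took 2.03%. The coding sequences are 99.5% identical (1919 of 1929 aligned bases), and the 3′ untranslated regions 53.2%. Of the 100-base stretches of either transcript, 47.1% in Hspa1a and 49.9% in Hspa1b occur in the other. Hspa1a also overlaps Gm20481 over 2225 bases on the opposite strand, and the sources used here do not say whether counting used strand. No gene of the deposited counts carries the name Gm20481. The split between the 2 genes is therefore uncertain, and the part of shared sequence or of the overlap in the low Hspa1a counts was not tested. Summing the pair kept the same calls.

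In SPM compared to DCM, Hsp90aa1 was upregulated 1.43-fold, and Hsf4 and Dnajb1 were downregulated. These are 3 of the 9 tested genes, beside 16.6% of all 14493 tested genes. None was a DEG by edgeR, beside 3.59% of all genes, by DESeq2, beside 600 of 21918, or by limma, beside 386 of 14493. By edgeR 6 of the 9 had an unadjusted p below 0.05, beside 34.6% of all genes, 1 of them with a fold change past 1.5. The libraries did not overlap for 5 of the 9 (Hsf1, Hsf4, Hsp90aa1, Dnajb1 and Hspb1), beside 39.5% of all genes. The median log2 fold change was -0.17, beside 0.01 for all genes. Without SPM replicate 2 none of the 9 passed, beside 0.486% of all genes (72 of 14828). With a GC offset 1 passed, Hsp90aa1, beside 3.17% of all genes. Across genes, the rank correlation of log2 fold change with transcript GC was -0.502 in this comparison, -0.366 in SPM compared to CK and 0.0602 in DCM compared to CK, as a description over genes, which are not replicates.

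Hsp90aa1 (chr12:110690605-110702728, minus strand) encodes the stress-inducible HSP90. Its CPM was 39.3, 56.4 and 62.6 in CK, 53.4, 48.1 and 56.8 in DCM, and 70.2, 77.0 and 77.8 in SPM. All SPM libraries lay above all CK and DCM libraries, and CK and DCM overlapped. The log2 fold change was 0.51 ± 0.08 in SPM compared to DCM (edgeR adjusted p = 0.00956) and 0.51 ± 0.15 in SPM compared to CK (edgeR adjusted p = 0.0357), these comparisons sharing the SPM libraries. In DCM compared to CK it was -0.00 ± 0.14. Compared to DCM, the rise passed under every alternative but the omission of SPM replicate 2, where it was 0.50. Compared to CK it did not pass without CK replicate 2, SPM replicate 2 or SPM replicate 3, with a GC offset (0.36), or with limma on FPKM (0.44).

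Dnajb1 (chr8:83608193-83612653, plus strand) encodes a J-domain protein that delivers clients to HSP70. Its CPM was 26.4, 29.4 and 35.1 in CK, 28.7, 26.1 and 27.6 in DCM, and 20.7, 21.7 and 22.5 in SPM. The SPM libraries were the lowest 3 of the 9, and CK and DCM overlapped. It was downregulated in SPM compared to DCM (log2 fold change -0.34 ± 0.08, edgeR adjusted p = 0.0197) and compared to CK (-0.49 ± 0.11, edgeR adjusted p = 0.0118). The first call was lost without DCM replicate 1, DCM replicate 2 or SPM replicate 2 and with a GC offset, where the value was -0.23. The second was lost without SPM replicate 2 alone.

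Hspb1 (chr5:135887919-135889563, plus strand) and Cryab (chr9:50751325-50756636, plus strand), the small heat shock proteins of the set, passed no test. Hspb1 had 253.6 to 303.6 CPM in CK, 261.4 to 317.1 in DCM and, in SPM, 247.4 to 257.1. The SPM libraries of Hspb1 lay below those of DCM, with a log2 fold change of -0.18 ± 0.08 (edgeR adjusted p = 0.134). Cryab had 1047 to 1154 CPM in CK, 1092 to 1220 in DCM and, in SPM, 1044 to 1105, all overlapping. Its log2 fold changes were 0.09 ± 0.08, -0.12 ± 0.07 and -0.03 ± 0.05 in DCM compared to CK, SPM compared to DCM and SPM compared to CK. Cryab overlaps Hspb2 over 1030 bases on the opposite strand, with the same limit on strand.

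In SPM compared to CK, 4 of the 9 tested genes passed (Hsp90aa1 higher, and Hsf1, Hspa1b and Dnajb1 lower), beside 27.4% of all 14574 tested genes. Of these 1 was a DEG, Hspa1b, beside 9.21% of all. The same 4 genes had libraries that did not overlap, beside 46.1% of all genes. The median log2 fold change was -0.11, beside 0.00 for all genes. Without SPM replicate 2 none passed, beside 1544 of 14897 genes in all, and with a GC offset 2 passed, beside 21.3% of all genes. The plot of log2 fold changes sets the 3 comparisons side by side.

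**Figure D3:**
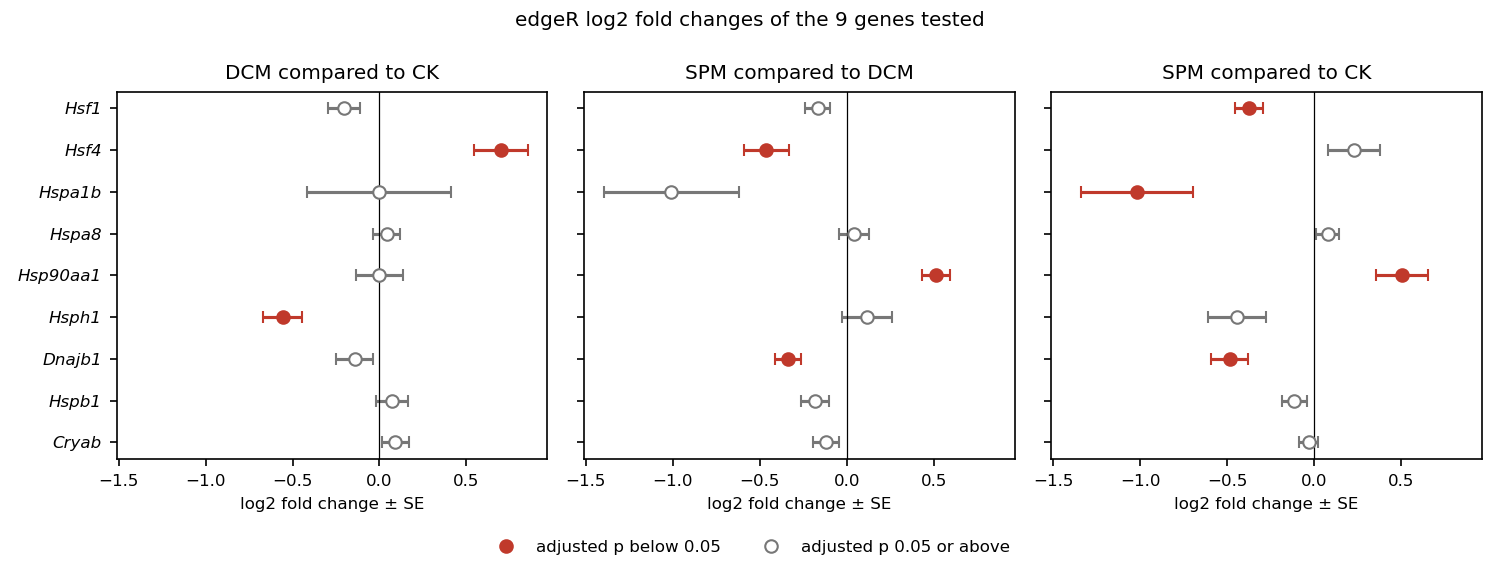
Log2 fold changes from edgeR of the 9 tested genes in the 3 comparisons, with bars for the SE and filled red points where the adjusted p was below 0.05. Hsf4 stands at 0.70 in DCM compared to CK and Hsp90aa1 at 0.51 in both comparisons with SPM, and the bars of Hspa1b are the widest.

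Several other measures moved with the groups, and their part in the results above was not tested. The 8 cardiomyocyte markers summed to 48897 to 56594 CPM in SPM, below each DCM library (57020 to 65663) and each CK library (61139 to 67532). In SPM compared to CK 5 of them fell and 1 rose, beside 14.3% and 13% of all tested genes. The 12 clock genes in the table summed to 462 to 511 CPM in CK, 715 to 758 in DCM and, in SPM, 740 to 890. In DCM compared to CK 8 of them passed, beside 10.4% of all tested genes. The 10 immediate early genes, which rise with handling or stress of tissue, summed to 396 to 948 CPM in CK, 573 to 780 in DCM and, in SPM, 285 to 524. The 7 fibroblast genes summed to 2019 to 2119 CPM in CK, 1363 to 1463 in DCM and, in SPM, 1605 to 1688. In DCM compared to CK 5 of them passed as lower, beside 5.11% of all tested genes. Dcn, the most abundant of them, and Pdgfra did not pass, with log2 fold changes of -0.04 and 0.05. The share of mitochondrial genes was 13.7% to 16.2% in the CK libraries. It was 15.5% to 18.9% in DCM and, in SPM, 21.01% to 21.09%. Macrophage markers summed to 731 to 962, 613 to 725 and 728 to 1224 CPM in CK, DCM and SPM. In bulk tissue, fewer cells of a type and less RNA per cell cannot be told apart.

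Beyond the 10 genes, 62 further chaperone genes were listed in 7 groups, of which 60 were in the table and 56 were tested in each comparison. In DCM compared to CK 3 rose and 3 fell, against 5.28% and 5.11% of all tested genes, and the median was -0.01. Fewer of the 56 passed there without CK replicate 2, DCM replicate 2 or DCM replicate 3, so some of these calls depend on single libraries. SPM compared to DCM had 6 that rose and 2 that fell, against 8.87% and 7.76%, with a median of 0.02. SPM compared to CK had 8 that rose and 7 that fell, against 13% and 14.3%, with a median of -0.02. With a GC offset 1 of the 56 passed in SPM compared to DCM, beside 3.17% of all genes, and 13 in SPM compared to CK, beside 21.3%. Without SPM replicate 2 the counts were 0, beside 0.486% of all genes, and 5, beside 10.4%. These 5 were Fkbp4, Fkbp5, Hspa2, Hspa4l and Hspa12b, with log2 fold changes of -0.59, 1.84, -0.54, 3.31 and -0.56.

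Hsbp1, a small binding protein of Hsf1 and the most abundant gene of the factor list, passed no test, with 113 to 124 CPM in CK, 119 to 128 in DCM and, in SPM, 104 to 118. Of that list Hsf2, chosen after its values were seen, rose in SPM compared to DCM by 0.36 ± 0.10 (edgeR adjusted p = 0.0393), and did not pass without SPM replicate 2 (0.34) or with a GC offset, where its value was -0.06.

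In the HSP70 and HSP110 list, Hspa4, the most abundant member, did not pass in any comparison, although its DCM libraries (107 to 111 CPM) lay below those of CK (118 to 129) and SPM (115 to 132). Hspa4l, an HSP110 relative, had raw counts of 6, 10 and 22 in CK, 22, 10 and 48 in DCM, and 229, 127 and 24 in SPM. SPM replicate 3 lay below the highest DCM library, and the high values were those of SPM replicates 1 and 2. It was a DEG in SPM compared to DCM (log2 fold change 2.36 ± 0.68, edgeR adjusted p = 0.0411) and in SPM compared to CK (3.33 ± 0.77, edgeR adjusted p = 0.0149). It did not pass against DCM by DESeq2, by limma, with a GC offset, or when any single library other than SPM replicate 3 was left out. The 8 liver genes, led by Alb, summed to 329, 151 and 1.53 CPM in SPM replicates 1, 2 and 3, and to at most 41.6 elsewhere, and their part in the Hspa4l values was not tested. Hspa2 and Hspa12b, chosen after their values were seen, fell in both comparisons with SPM, of which that with DCM did not pass without SPM replicate 2 (-0.53 and -0.35). Hspa2 had 11.5 to 12.6 CPM in CK, 11.4 to 12.9 in DCM and, in SPM, 7.90 to 8.20.

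Among HSP90 and its co-chaperones, Hsp90ab1 passed no test, at 1611 to 1695 CPM in CK, 1569 to 1773 in DCM and, in SPM, 1540 to 1558. Fkbp5, an HSP90-binding immunophilin of the glucocorticoid receptor and a known glucocorticoid target, had 33.7, 26.0 and 40.4 CPM in CK, 93.3, 133.7 and 130.5 in DCM, and 146.8, 114.1 and 92.1 in SPM. Every STZ-treated library lay above every CK library. Its log2 fold change was 1.84 ± 0.16 in DCM compared to CK (3.57-fold, edgeR adjusted p = 2.52e-05) and 1.82 ± 0.19 in SPM compared to CK (edgeR adjusted p = 0.000995), comparisons that share the CK libraries. It was the only DEG of the 56 in DCM compared to CK.

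Fkbp4, Chordc1, Dnaja1 and Bag3 are named after their values were seen. Some calls of the chaperone lists in DCM compared to CK depend on single libraries, as said above. Fkbp4, the immunophilin that competes with Fkbp5 on the receptor, had 455 to 490 CPM in CK, 353 to 402 in DCM and, in SPM, 307 to 326. It fell in DCM compared to CK (log2 fold change -0.35 ± 0.08, edgeR adjusted p = 0.0117) and in SPM compared to CK (-0.58 ± 0.05, edgeR adjusted p = 0.000625). Chordc1, an HSP90 co-chaperone that carries the 3-unit element shown above, had 13.3, 16.9 and 19.9 CPM in CK, 12.2, 9.08 and 12.8 in DCM, and 14.6, 15.4 and 15.2 in SPM. It fell in DCM compared to CK by 0.55 (log2, edgeR adjusted p = 0.0486), a call lost without CK replicate 2, CK replicate 3 or any single DCM library. It rose in SPM compared to DCM by 0.41 (edgeR adjusted p = 0.0490), and did not pass without SPM replicate 2 (0.40) or with a GC offset, where its value was -0.01.

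**Figure D4:**
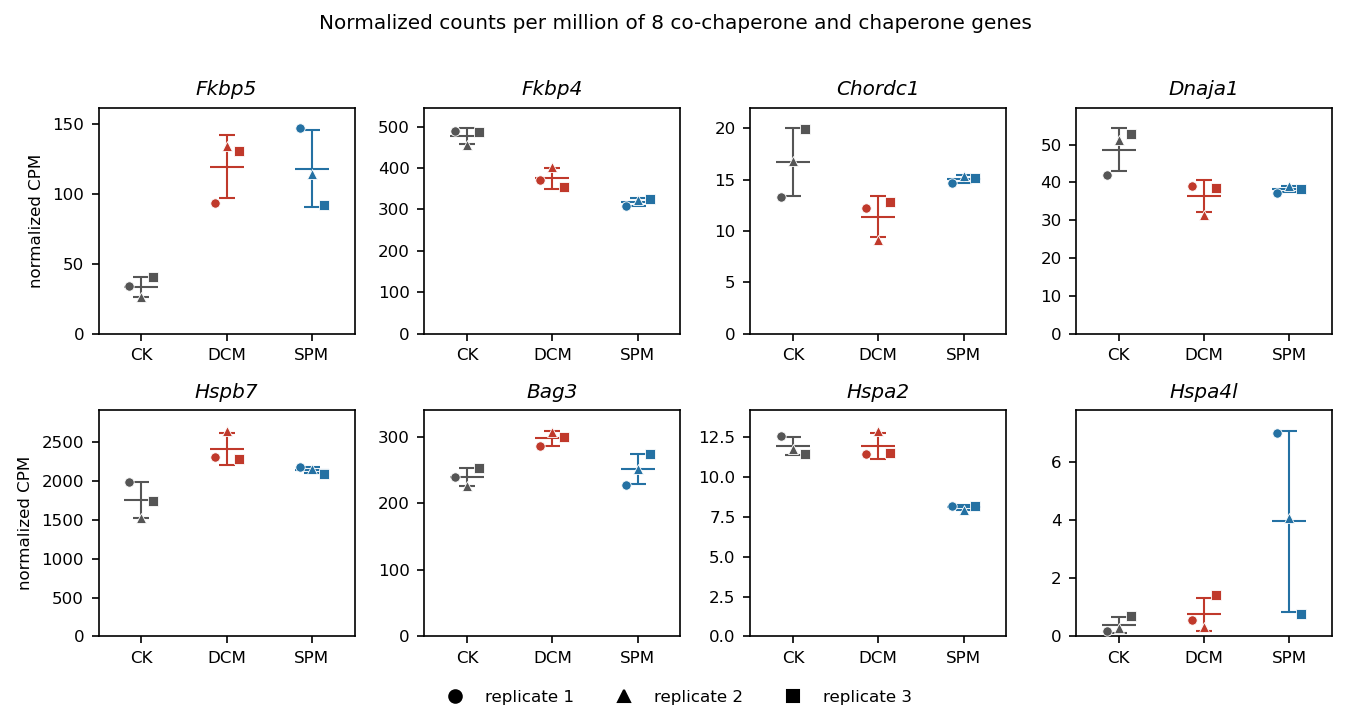
Normalized CPM of 8 co-chaperone and chaperone genes in the CK, DCM and SPM libraries, with circles, triangles and squares for replicates 1, 2 and 3 and the mean with SD bars. Fkbp5 is above 90 CPM in all STZ-treated libraries and at most 40.4 in CK, and the SPM value of Hspa4l comes from replicates 1 and 2.

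Of the J-domain list, Dnaja2, the most abundant, passed no test, at 196 to 225 CPM over all libraries. Dnaja1, which pairs with Hspa8, had 42.1 to 52.7 CPM in CK, 31.5 to 39.0 in DCM and, in SPM, 37.3 to 39.0, and fell in DCM compared to CK by 0.42 (log2, edgeR adjusted p = 0.0251). Among HSP70 exchange factors, Bag1 passed no test (212 to 254 CPM over all libraries). Bag3, which links HSP70 to small heat shock proteins at the sarcomere, had 227 to 253 CPM in CK, 286 to 308 in DCM and, in SPM, 228 to 274, and rose in DCM compared to CK by 0.31 ± 0.07 (edgeR adjusted p = 0.0169). Its SPM libraries lay below those of DCM (-0.24 ± 0.08, edgeR adjusted p = 0.0606) and overlapped those of CK.

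Of the small heat shock proteins, Hspb7, a muscle-rich binder of filamin and the most abundant of its list at 755.6 FPKM, had 1986, 1526 and 1741 CPM in CK, 2305, 2641 and 2281 in DCM, and 2175, 2147 and 2092 in SPM. It rose in DCM compared to CK by 0.46 ± 0.10 (edgeR adjusted p = 0.0133) and in SPM compared to CK by 0.29 ± 0.09 (edgeR adjusted p = 0.0371), the latter not passing without SPM replicate 2. For the TRiC chaperonin, the ring that folds actin and tubulin, 0 of 8 genes passed the edgeR test in each comparison, with 0, 2 and 0 at an unadjusted p below 0.05 in DCM compared to CK, SPM compared to DCM and SPM compared to CK, beside 24.6%, 34.6% and 40.9% of all genes. DESeq2 called 0 in each, beside 7.83%, 12.3% and 18.4% of all genes. With limma 0, 0 and 2 were called, beside 11.4%, 12.1% and 30.6%. Cct5, its most abundant member, had log2 fold changes of -0.04, -0.09 and -0.13. Of the 10 mitochondrial chaperones, listed for comparison, 0 passed in DCM compared to CK by edgeR and DESeq2, beside 10.4% and 7.83% of all genes. There 1 had an unadjusted p below 0.05, beside 24.6%, and 1 passed by limma, beside 11.4%. In SPM compared to DCM 1 passed as higher and 3 as lower, beside 16.6% of all genes passing. In SPM compared to CK 1 passed as higher and 4 as lower, beside 27.4%. Without SPM replicate 2, 0 passed in SPM compared to DCM, beside 0.486% of all genes, and 1 in SPM compared to CK, beside 10.4%.

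**Figure D5:**
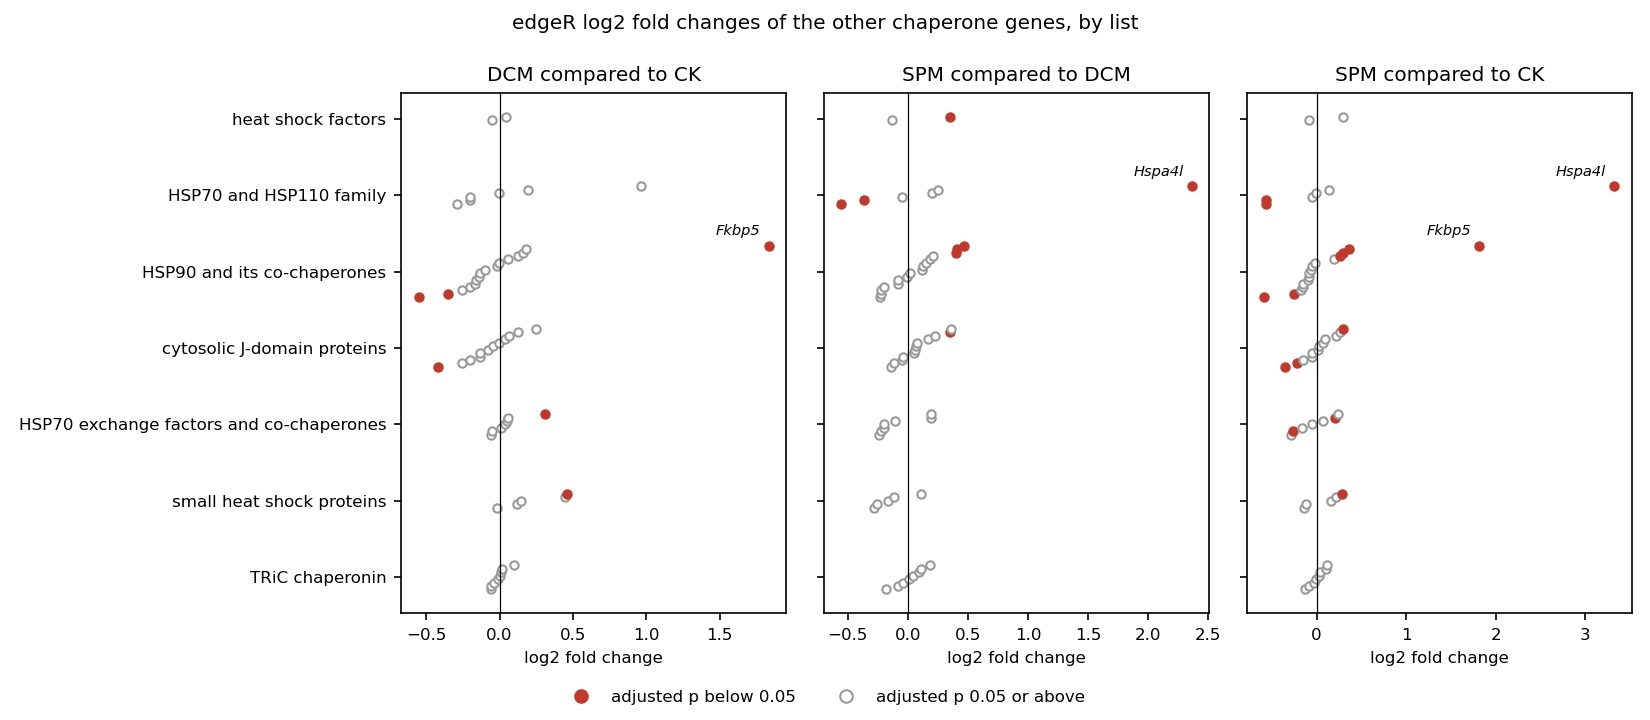
Log2 fold changes from edgeR of the 56 tested chaperone genes outside the 10, by list, with filled red points where the adjusted p was below 0.05 and DEGs named. Most points lie within 0.5 of 0, Fkbp5 stands at 1.84 in DCM compared to CK, and the TRiC row holds no filled point in any of the 3 panels.

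Some genes followed a member closely over the 9 libraries, by Pearson's r of log2 CPM among 14909 genes. For Hsf1 these were E130309D02Rik (0.984), Emc6 (0.976) and Itm2c (0.976). For Hsf4 they were Nxpe3 (0.982), Amdhd2 (0.973) and Dtnbp1 (0.969), and for Hsp90aa1 they were Hnrnpr (0.988), Sgcd (0.982) and Wls (0.981). The points share group means and library composition, so these values are a description only. Nxpe3 had 4.31 to 5.46 CPM in DCM against 2.27 to 3.35 in CK and 2.99 to 3.73 in SPM, the order seen for Hsf4. Hspa1a did not pass the filter on low counts and has no such list.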

How the data were processed

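RNA was sequenced from 9 libraries, 3 each of CK, DCM and SPM, grouped by their titles. The authors filtered reads with fastp 0.18.0, and the submitters' processing notes name Bowtie 0.12.2 and the builds mm8 and mm9 without a role; no source used here gives the counting tool, its strand setting or its annotation. The deposited counts are whole numbers per gene and library, and the deposited FPKM values equal count over length and library total. Symbols and coordinates came from GENCODE M21 (GRCm38), which named 22820 of 22851 genes. Of the listed chaperones Stub1 and Cryaa were not analysed here for expression, and entered the search of promoter windows only.

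Counts were tested with edgeR 4.0.16 (quasi-likelihood, TMM, filterByExpr, Benjamini-Hochberg over all tested genes) in R 4.3.3, each pair of groups fitted on its own 6 libraries. Log2 fold changes are printed with an SE derived from the F statistic. FPKM served for levels between genes and for limma 3.58.1 on log2(FPKM + 0.1). Alternatives were RLE scaling, no filter, a joint fit of all 9 libraries, at least 1 CPM in 3 libraries, the replicate number as a block, DESeq2 1.42.0, limma, a GC offset, Hspa1a and Hspa1b summed, a fold limit of 1.3, and each library left out. Members and lists were chosen with earlier results of these data known. Genes named were the 10 members, DEGs and the most abundant gene of each chaperone list, and the 3 genes most like Hsf1, Hsf4, Hspa1a and Hsp90aa1; others are said to be chosen after their values were seen.

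Simulated counts held 198 changed genes among 14212 (DCM compared to CK), 14295 (SPM compared to DCM) and 14340 (SPM compared to CK) genes. Of changes of 2-fold or more, 83.9%, 87.9% and 80.4% were recovered, and of 1.5-fold changes 63.3%, 61.2% and 62.0%. In the same order, 24, 15 and 16 unchanged genes were called. Even if all 198 changed genes had been called, these would exceed the 0.05 share of calls that the adjusted p limit allows on average. Calls with an adjusted p close to 0.05 may therefore be less certain than that value says. Of the retina markers, all but Crx are not reported here.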

Additional observations from a re-analysis of the deposited data

How the results depend on the processing

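The 3 comparisons rest on 3 libraries a group, and changes under 1.5-fold are near the limit of what they can show. Counts of genes passing moved with the settings as follows, and the cause was not tested. In DCM compared to CK, members passing were 1 to 2 with a library left out (1 without DCM replicate 2) and 2 otherwise. Of all tested genes, 10.4% passed in the main fit and 5.59% to 8.91% with a library left out (5.81% without DCM replicate 2). DEGs among all genes were 625 in the main fit, 693 by limma and 427 to 704 with a library left out. Members that were DEGs were 2 by limma and with a fold limit of 1.3, and 1 to 2 with a library left out (2 without CK replicate 1). The other chaperones passing were 2 to 7 with a library left out (2 without CK replicate 2, and 3 without DCM replicate 2 or 3), and their DEGs were 4 at 1.3-fold and 1 to 2 with a library left out (2 without CK replicate 1).

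For SPM compared to DCM, members passing were 1 with the GC offset and 0 to 5 with a library left out (0 without SPM replicate 2, 1 without DCM replicate 1 or 2, and 5 without DCM replicate 3). The share of all genes passing moved too. It was 16.6% in the main fit, 3.17% with the GC offset and 19.4% with at least 1 CPM. Without SPM replicate 2 it was 0.486%, and without DCM replicates 1, 2 and 3 it was 5.04%, 1.29% and 15%. DEGs among all genes were 521 in the main fit, 727 with no filter, 125 with the GC offset and 56 to 791 with a library left out. Member DEGs were 1 with no filter, 2 at 1.3-fold, and 0 to 1 with a library left out (1 without DCM replicate 3). The other chaperones passing were 13 with at least 1 CPM, 1 with the GC offset, and 0 to 13 with a library left out (0 without DCM replicate 2 or SPM replicate 2, 4 without DCM replicate 1, and 13 without DCM replicate 3). Their DEGs were 0 with DESeq2, limma or the GC offset, 5 at 1.3-fold, and 0 to 1 with a library left out (0 without DCM replicate 2, SPM replicate 1 or SPM replicate 2).

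For SPM compared to CK, members passing were 2 with the GC offset and 0 to 5 with a library left out (0 without SPM replicate 2 and 2 without CK replicate 2). Of all tested genes, 27.4% passed in the main fit and 21.3% with the GC offset. With a library left out the share was 10.4% (without SPM replicate 2) to 25.2%, and 20.2% without CK replicate 2. DEGs among all genes were 1342 in the main fit, 1056 with the GC offset, 1481 by limma and 771 to 1589 with a library left out. Member DEGs were 0 with all 9 libraries or the GC offset, 3 at 1.3-fold, and 0 to 2 with a library left out (0 without CK replicate 2, SPM replicate 1 or SPM replicate 2, and 2 without CK replicate 1). The other chaperones passing were 5 to 16 with a library left out (5 without SPM replicate 2 and 9 without SPM replicate 1). Their DEGs were 1 with at least 1 CPM, 4 by limma, 5 at 1.3-fold, and 1 to 4 with a library left out (1 without CK replicate 1, and 4 without CK replicate 3 or SPM replicate 3). Hsph1, which did not pass in this comparison, passed with all 9 libraries, DESeq2, limma or without SPM replicate 3 (-0.60).

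Of log2 fold changes that had passed, with the GC offset those of Hsf2 (-0.06) and Chordc1 (-0.01) in SPM compared to DCM and St13 (-0.08) in SPM compared to CK turned sign. For the 10 members, signs turned where the log2 fold change had not passed. For DCM compared to CK, with a main value of about 0, Hspa1b was 0.0029 with RLE, 0.0023 with at least 1 CPM, and -0.704 to 0.489 with a library left out. Hsp90aa1 was 0.0047 with RLE, 0.0012 with no filter, 0.0027 with at least 1 CPM, 0.0057 with DESeq2, 0.0247 with the GC offset, and -0.173 to 0.139 with a library left out. Hspa8 was -0.0505 by limma and -0.0156 to 0.0856 with a library left out, and Hspb1 -0.0188 by limma and -0.0052 to 0.155 with a library left out. By limma on FPKM the median of all genes was itself -0.0878 in this comparison. For SPM compared to DCM the GC offset gave -0.0545 for Hspa8, 0.0826 for Hspb1 and 0.0223 for Cryab, and leaving out a library gave -0.0264 to 0.0985 for Hspa8 and -0.0442 to 0.273 for Hsph1. For SPM compared to CK, Hspa8 was -0.0193 by limma, where the median of all genes was -0.0829. The GC offset gave -0.0037 for Hspa8, 0.106 for Hspb1 and 0.0952 for Cryab.

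Same-numbered libraries showed no visible tendency to deviate together (r of -0.0746 to 0.205 over 9 pairs, against -0.284 to 0.217 over 18 others). With 3 libraries a group, these values cannot decide whether the numbers pair the samples. With the replicate number as a block, members passing were 2, 4 and 5 in DCM compared to CK, SPM compared to DCM and SPM compared to CK, and member DEGs 1, 1 and 1. Of all genes 9.04%, 19.4% and 26.3% passed with the block, and 568, 610 and 1282 were DEGs. With this block the log2 fold change of Hsp90aa1 in DCM compared to CK was 0.0213, Hspa1b passed in SPM compared to DCM (-0.84), and Hsph1 passed in SPM compared to CK (-0.46).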
